A study of Mus musculus with 16 samples.

Results

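The clustered protocadherin genes lie on mouse chromosome 18, in 3 neighbouring clusters named Pcdha, Pcdhb and Pcdhg. Their CpGs were taken from the region of chromosome 18 that spans the 3 clusters, in which the variable exons run from 37089939 to 37981944 of the mm9 build, and were kept where they were listed in all 16 libraries of the series. The files listed 851 of the 11206 CpGs of this region in at least 1 library. All 16 libraries shared 163 of them, out of 329078 CpGs shared in the whole genome. Of the 163 CpGs, 73 lay in variable exons, 48 in promoters, 1 in a constant exon, 3 between the constant exons of a cluster, 3 between Pcdhb genes, 5 between clusters and 3 beyond the Pcdhg cluster. The other 27 lay at the start of Taf7, a gene between the clusters that encodes a subunit of the general transcription factor TFIID. An exon or promoter was measured where it held at least 2 of these CpGs. Of the 58 protocadherin genes, 20 had a measured variable exon, namely 4 of 14 Pcdha, 7 of 22 Pcdhb and 9 of 22 Pcdhg genes. The measured exons held 2 to 7 of these CpGs, while the exon sequences hold 50 to 144 CpGs. A promoter, the 1000 bases before the start codon, was measured for 10 genes, and 26 genes had a measured exon or promoter. For all other genes, the annotated first exon and the 1000 bases before the transcript start were used. Shares over all first exons and all promoters thus rest mostly on elements defined in another way.

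Methylation was measured by reduced representation bisulfite sequencing (RRBS), in which bisulfite turns unmethylated cytosines into uracil and the share of reads that keep the cytosine is the methylation level of a CpG. All 8 groups, with 2 replicates each, derived from E14, a mouse embryonic stem cell (mESC) line. YP-mESCs were young cells of passage 14, and OP-mESCs were old cells kept for about 70 passages. OP-S33Y #1 and #2, O-S33Y in the labels, were each 1 clone of E14 YP-mESCs that overexpressed the stable S33Y form of β-catenin and was then passaged for a long time. The groups mESC shCtrl and mESC shβcat #1 were young E14 mESCs with a control hairpin or a hairpin against β-catenin. EB shCtrl and EB shβcat #1 were embryoid bodies, aggregates in which such cells differentiate, at day 8. The labels do not say whether replicates were separate cultures. The study calls those of the young, old and S33Y lines biological replicates. The p-values of exons, promoters and windows measure the spread between these libraries. Those of single CpGs rest on read counts, scaled by an excess spread between replicates that all CpGs of a comparison share.

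Each variable exon of the Pcdha and Pcdhg clusters has its own promoter and encodes the extracellular, transmembrane and first cytoplasmic part of a cell adhesion protein, and is spliced to constant exons shared by the cluster. The Pcdhb genes are single exons. Neurons choose a few of these promoters each, and the combination of isoforms is used for recognition between neurites of the same cell. The choice is linked to DNA methylation of promoter and exon, to CTCF and cohesin, and to enhancers beyond the genes, and DNMT3B is known to methylate these promoters in the early embryo. The last genes of the Pcdha and Pcdhg clusters, Pcdhac1, Pcdhac2, Pcdhgc3, Pcdhgc4 and Pcdhgc5, are called C types and are expressed more uniformly than the alternate genes.

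The libraries had 18919219 to 40519010 reads on CpGs and 187 to 733 CpGs of the region. OP-mESC replicate 2 had the fewest of both. Replicates correlated with Pearson's r from 0.975 to 0.99 over all shared CpGs, which are not independent replicates. Protocadherin genes resemble each other, and 17 of the 163 CpGs had bisulfite-converted surroundings, 20 bases on each side, that recur elsewhere in the region. They included every measured CpG of the exons of Pcdhb2, Pcdhb18 and Pcdhb22, 3 of 4 of Pcdhga8 and 2 of 4 of Pcdhgb7, so that reads at these sites may come from a near copy.

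The variable exons were methylated at intermediate levels in the stem cells and at higher levels in the embryoid bodies. Over their 73 CpGs, the YP-mESC replicates had mean levels of 37.60% and 37.87%, and the OP-mESC replicates 25.62% and 25.12%. OP-S33Y #1 had 33.39% and 34.11%, and OP-S33Y #2 29.59% and 30.18%. Both clones lay between the young and the old cells, and no replicate of these 4 groups overlapped with another group. The replicates of mESC shCtrl had 46.06% and 43.39%, and those of mESC shβcat #1 48.74% and 46.70%. The embryoid bodies reached 63.08% and 62.90% with shCtrl and 61.85% and 65.17% with shβcat #1, above every stem cell library. The young stem cells with hairpins lay above the YP-mESCs. Tests were made only between groups of the same experiment, and levels set beside each other across all 8 groups are a description. The smallest two-sided p that an exact permutation test of such a mean allows is 0.33 with 2 against 2 libraries, so that these levels are a description. A level of a culture does not tell whether fewer cells were methylated or each cell was methylated at fewer sites.

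The changes of the exons were larger in points than those of the genome. Over all 329078 CpGs the mean was 24.40% ± 0.02 (SD, n = 2) in YP-mESCs and 21.09% ± 0.04 in OP-mESCs, a difference of -3.31 points, against -12.36 points over the variable exons. Between mESC shCtrl and EB shCtrl the mean of all CpGs differed by 4.40 points and that of the variable exons by 18.27 points. Many CpGs that RRBS covers are near 0, and first exons of intermediate level are therefore also given on their own.

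**Figure D1:**
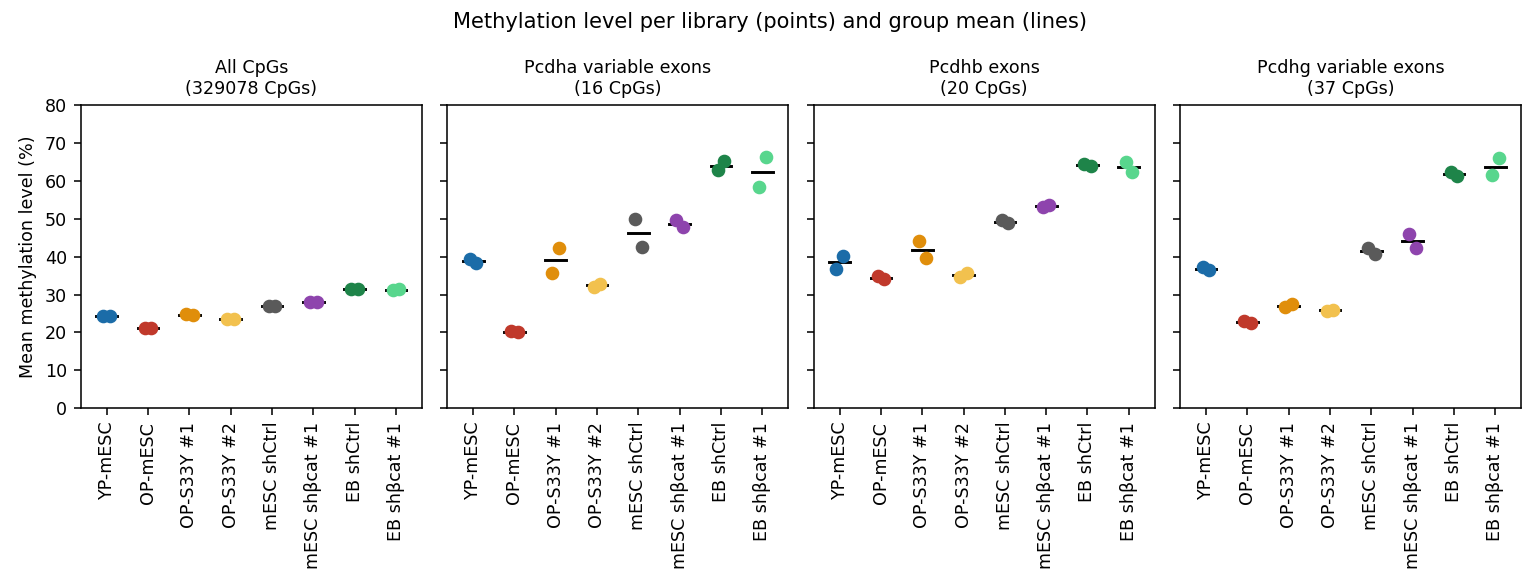
Mean methylation level in percent (vertical axis) of all shared CpGs and of the variable exon CpGs of the Pcdha, Pcdhb and Pcdhg clusters in the 8 groups. Points are libraries and lines are group means. The EB libraries lie at 58.44% or more in all 3 clusters, OP-mESCs average 20.14% in Pcdha, and the S33Y clones lie near the YP-mESCs in Pcdha but near the OP-mESCs in Pcdhg.

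The 3 clusters did not change by the same amount in long culture. The 16 Pcdha exon CpGs averaged 38.83% ± 0.75 in YP-mESCs and 20.14% ± 0.18 in OP-mESCs (SD, n = 2). The 37 Pcdhg exon CpGs averaged 36.84% ± 0.64 and 22.70% ± 0.30. The 20 Pcdhb exon CpGs averaged 38.51% ± 2.50 and 34.49% ± 0.57, so that the difference was smallest in Pcdhb. All 20 lay 1000 bases or more after the start codon, while part of the Pcdha and Pcdhg CpGs lay nearer to it. In the alternate and Pcdhb genes, 22 CpGs from base 500 up to base 1000 averaged 33.74% in YP-mESCs and 11.03% in OP-mESCs. Over 16 CpGs of the next 500 bases the means were 51.87% and 49.43%, and over 22 CpGs beyond these 33.59% and 25.25%. Pcdha3, measured beyond base 1500, had 42.06% and 24.22%. Cluster and distance from the start codon can thus not be told apart here. The clones also differed by cluster. In Pcdha, OP-S33Y #1 had 35.74% and 42.33%, which spans the YP-mESC values, and OP-S33Y #2 had 31.98% and 32.90%. In Pcdhg, OP-S33Y #1 had 26.62% and 27.58% and OP-S33Y #2 had 25.77% and 26.02%, 4.40 and 3.19 points above the OP-mESCs and below the YP-mESCs. Its subgroups differed in this, without a test of the difference. Over the 19 CpGs of the Pcdhga exons, the clones averaged 29.39% ± 1.02 and 29.20% ± 0.00, between OP-mESCs at 19.86% ± 0.85 and YP-mESCs at 39.73% ± 0.24. Of these 19, 7 lay in Pcdhga4, at 32.84% and 33.17% in the clones and 13.12% in OP-mESCs. Over the 15 of the Pcdhgb exons they averaged 18.49% ± 0.30 and 17.72% ± 1.60, below both the OP-mESCs at 21.30% ± 1.54 and the YP-mESCs at 25.46% ± 1.59, with no overlap. Of the 15, 6 lay in Pcdhgb6, at 14.36% and 12.74% in the clones and 21.78% in OP-mESCs. In Pcdhgb4 the clones were above the OP-mESCs, with 5.44% and 2.41% against 1.71%. They were near them in Pcdhgb2, with 59.49% and 60.66% against 60.11%, and in Pcdhgb7, with 0.48% and 0.66% against 1.28%. The subgroup means thus lean on single exons. In Pcdhb, OP-S33Y #1 had 44.06% and 39.63% and OP-S33Y #2 had 34.73% and 35.71%. The differences between clusters were not tested. In embryoid bodies the 3 clusters came to similar levels, 64.05% ± 1.67 in Pcdha, 64.34% ± 0.32 in Pcdhb and 61.80% ± 0.81 in Pcdhg with shCtrl.

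**Figure D2:**
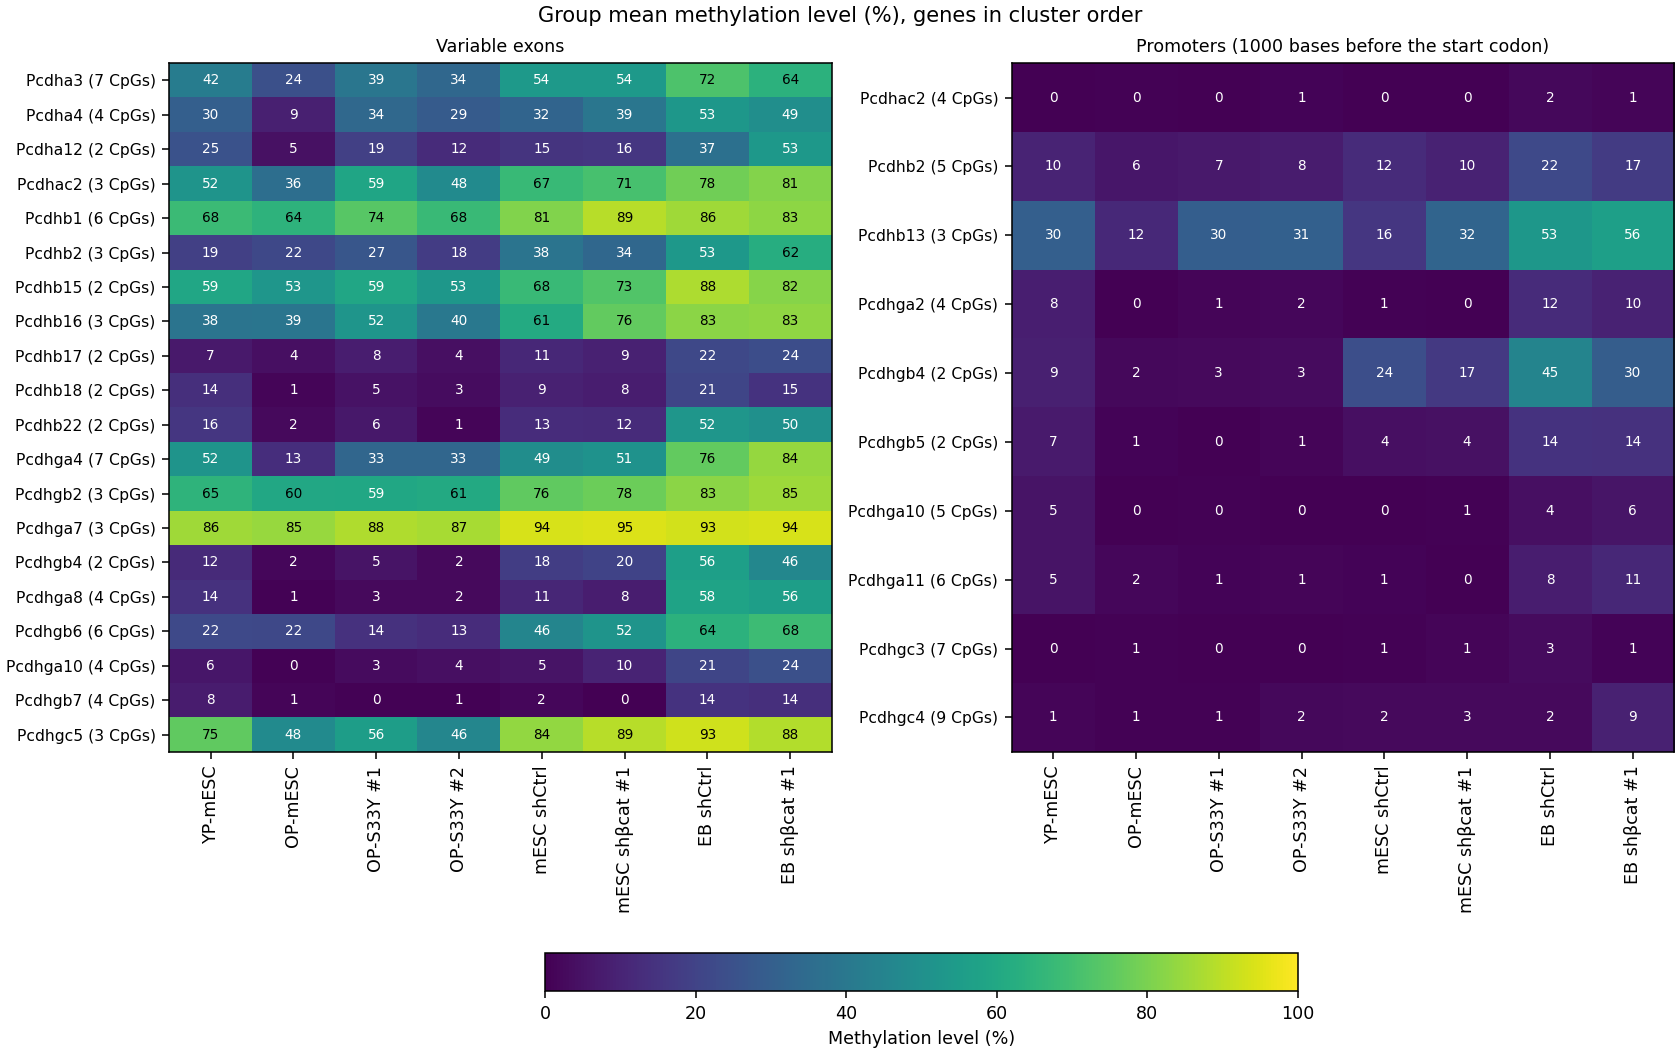
Group mean methylation level in percent (colour and printed value) of the 20 measured variable exons and the 10 measured promoters, in cluster order from top to bottom, with the number of CpGs behind each row and the 8 groups as columns. Neighbouring exons differ widely within a group, from Pcdhga7 at 84.73% to 94.85% to Pcdhgb7 at 0.26% to 14.50%. Most promoters are under 10% outside the embryoid bodies, with Pcdhb13, at 30.18% in YP-mESCs, among the exceptions.

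Neighbouring exons had very different levels at their measured CpGs in the same cells. In YP-mESCs the exon of Pcdhga7 was at 84.91% and 86.73%, and that of the next measured gene, Pcdhgb4, at 12.07% and 12.02%. The CpGs of Pcdhgb4 lie at 37880211 and 37880235, just after its start codon at 37880208. Those of Pcdhga7 lie from 37876037 to 37876100, well inside an exon that starts at 37874596. Gene and distance from the start codon can thus not be told apart here. Pcdhga7 was the most constant exon, with group means from 84.73% to 94.85%. Pcdhga4 varied most, with group means from 13.12% in OP-mESCs to 84.35% in EB shβcat #1. The lowest group mean was that of the OP-mESCs in 12 of 20 exons. The highest was that of an EB group in 18 of 20, with Pcdhb1 and Pcdhga7 as the exceptions. This order is also that of the genome. Over all 329078 CpGs the OP-mESCs were lowest at 21.09%, and EB shCtrl and EB shβcat #1 highest at 31.44% and 31.27%. The share of all first exons with this order was not counted.

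The comparison of OP-mESCs with YP-mESCs asks how methylation changed in long culture. Of the 20 measured exons, 6 were lower in OP-mESCs, none was higher, and 18 differed downward, with a median of -8.32 points. An exon was called where limma gave an adjusted p under 0.05, adjusted over 7250 first exons of the genome by the Benjamini-Hochberg method, and the group means differed by more than 10 points. Of all first exons, 1.3% were called lower and 0.0552% higher, but most have levels near 0. Of the 664 first exons at 10 to 90% in YP-mESCs, 14.5% were called, against 6 of the 17 protocadherin exons in this range, which had a median difference of -12.34 points beside -8.77 points over the 664.

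**Figure D3:**
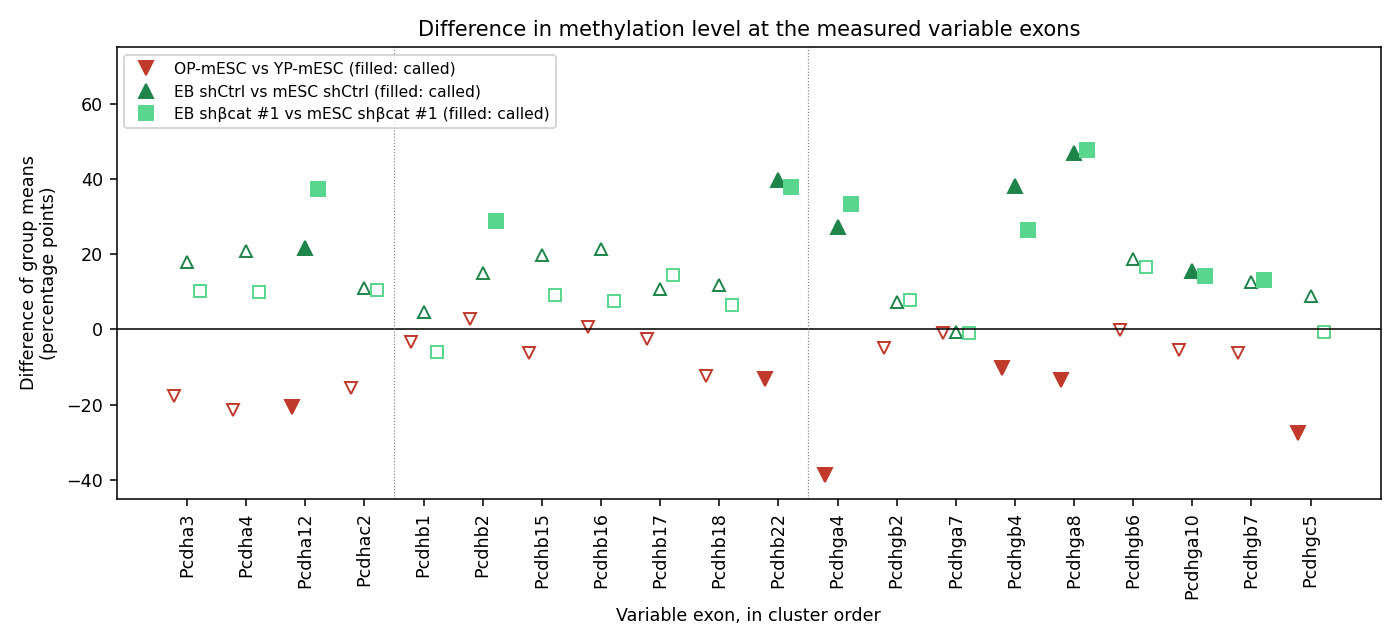
Difference of group means in percentage points (vertical axis) at the 20 measured variable exons in cluster order, for OP-mESCs against YP-mESCs and for embryoid bodies against mESCs with either hairpin. Filled symbols are called exons. The filled symbols of long culture lie below 0, down to -38.62 points at Pcdhga4, and those of embryoid bodies above 0, up to 47.82 points at Pcdhga8.

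Pcdhga4, an alternate gene of the γ cluster, had the largest decrease among the 20 exons. Its exon lies at 37845054 to 37847492 of chromosome 18. Its 7 exon CpGs were at 47.13% and 56.36% in YP-mESCs and at 11.45% and 14.80% in OP-mESCs, a difference of -38.62 points (limma, adjusted p = 0.0029). The exon of Pcdhgc5, a C type gene, was at 74.33% and 76.47% in YP-mESCs and at 48.72% and 46.75% in OP-mESCs (limma, adjusted p = 0.025). The exon of Pcdha12, the last alternate gene of the α cluster, at 37179884 to 37182289, fell from 21.37% and 29.22% to 2.94% and 6.36% (limma, adjusted p = 0.010). Its CpGs also lie at the start of Gm10545, an antisense gene inside the exon, and cannot be assigned to one of them. In Pcdhb22, the last gene of the β cluster, at 37678135 to 37680519, 17.31% and 14.06% stood against 2.00% and 2.78% (limma, adjusted p = 0.026). The groups did not overlap in any of these 4 exons. The remaining calls were Pcdhgb4, with 12.07% and 12.02% against 2.08% and 1.33%, and Pcdhga8, with 23.11% and 5.15% against 0% and 1.28% (limma, adjusted p = 0.041 and 0.019). In Pcdhga8 the YP-mESC replicates differed by more than the lower of them differed from the OP-mESCs.

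Other exons had large differences that did not pass. Pcdha4 was at 32.88% and 27.41% in YP-mESCs and at 2.21% and 15.03% in OP-mESCs (limma, adjusted p = 0.060). Pcdha3, the first measured exon of its cluster, was at 41.51% and 42.61% against 28.09% and 20.35% (limma, adjusted p = 0.14), and Pcdhac2 at 54.98% and 48.79% against 37.63% and 34.96% (limma, adjusted p = 0.17). The first and the last exon of the β cluster differed from each other, since Pcdhb1 was at 67.22% and 68.76% against 62.16% and 66.83%. The values of Pcdhb16 overlapped, with 36.59% and 40.20% against 46.67% and 31.25%. Without OP-mESC replicate 1 only Pcdhga4 was called, and without OP-mESC replicate 2 the calls were Pcdha4, Pcdha12 and Pcdhga4. Without YP-mESC replicate 1 they were Pcdha12 and Pcdhga4, and without YP-mESC replicate 2 Pcdhga4 and Pcdhga8. Over the 10 exons without recurring surroundings, 3 were called, Pcdha12, Pcdhga4 and Pcdhgc5.

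No promoter was called in long culture, where 1.49% of 6957 promoters were called. Of the 10 protocadherin promoters, 6 had an unadjusted p under 0.05, beside 19.9% of all promoters. The promoter of Pcdhb13 was at 32.03% and 28.32% in YP-mESCs and at 10.42% and 12.83% in OP-mESCs (limma, adjusted p = 0.073). It passed where the prior spread followed the counting error, and 3.22% of all promoters were called lower there. Among single CpGs, tested with a binomial model and called at over 25 points and an adjusted p under 0.05, 12 of 163 were lower in OP-mESCs and 0 were higher, beside 2.4% and 0.0693% of all CpGs. Of these, 6 were in the exon of Pcdhga4. Without OP-mESC replicate 1 there were 4 calls and without OP-mESC replicate 2 there were 7. Of 35 windows of 1000 bases in the region, 9 were lower, beside 12.1% of all windows.

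The clones OP-S33Y #1 and #2 were compared with YP-mESCs and with OP-mESCs, to ask how long culture with stable β-catenin differed. The 2 comparisons of a clone share its libraries, and comparisons of both clones share the controls, so that their values are only set side by side. Against YP-mESCs, no exon was called in OP-S33Y #1 (0.0276% of all first exons). Of the 20 exons, 7 had an unadjusted p under 0.05 there, beside 10.3% of all first exons. In OP-S33Y #2, 1 exon was lower (0.124%). This was Pcdhb22, at 0% and 2.38% in OP-S33Y #2 and 17.31% and 14.06% in YP-mESCs (limma, adjusted p = 0.022). The call was lost without OP-S33Y #2 replicate 1 and without either YP-mESC replicate. The median difference from YP-mESCs was -4.34 points for OP-S33Y #1 and -6.54 points for OP-S33Y #2, beside 0.00 and 0.10 points over all first exons. At 10 to 90% in YP-mESCs it was -5.49 and -8.48 points over 17 protocadherin exons, beside 0.58 and -2.52 points over 664 first exons.

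Against OP-mESCs, 3 exons were higher in OP-S33Y #1, beside 1.27% of all first exons, and 1 was higher in OP-S33Y #2, beside 0.648%. Of the 507 first exons at 10 to 90% in OP-mESCs, 8.88% were called in OP-S33Y #1 and 2.56% in OP-S33Y #2, and of the 11 protocadherin exons in this range 1 was called in each. Their median differences were 7.85 and 0.99 points, beside 9.24 and 6.10 points over the 507. Over all 20 exons the medians were 4.65 and 1.42 points. The exon of Pcdhga4 was called in both clones, with 28.54% and 37.15% in OP-S33Y #1, 32.42% and 33.93% in OP-S33Y #2, and 11.45% and 14.80% in OP-mESCs (limma, adjusted p = 0.042 and 0.048). Both clones thus stood above the OP-mESCs and below the YP-mESCs, at 47.13% and 56.36%. Pcdha4 was at 31.67% and 35.65% in OP-S33Y #1 (limma, adjusted p = 0.042) and at 26.18% and 31.56% in OP-S33Y #2 (limma, adjusted p = 0.067), against 2.21% and 15.03% in OP-mESCs. Pcdha12 was at 17.25% and 20.57% in OP-S33Y #1 (limma, adjusted p = 0.030) and at 12.36% and 12% in OP-S33Y #2, against 2.94% and 6.36%.

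Within the γ cluster, the clones did not stand the same way to the OP-mESCs at every exon. Pcdhga8 was at 2.88% and 2.38% in OP-S33Y #1 and at 2.63% and 2.34% in OP-S33Y #2. These values lay slightly above the OP-mESCs at 0% and 1.28% and below the YP-mESCs at 23.11% and 5.15%. Pcdhgc5 was at 55.28% and 55.90% and at 49.90% and 41.67%, nearer to the OP-mESCs at 48.72% and 46.75% than to the YP-mESCs. Pcdhgb6 was at 13.07% and 15.65% in OP-S33Y #1 and at 12.33% and 13.15% in OP-S33Y #2, below the OP-mESCs at 24.74% and 18.81% and the YP-mESCs at 24.59% and 19.57%, without a call (limma, adjusted p from 0.26 to 0.56). Of the calls against OP-mESCs, only Pcdha4 was called in OP-S33Y #1 without OP-mESC replicate 2, and none without OP-mESC replicate 1 or either OP-S33Y #1 replicate. In OP-S33Y #2 none remained without either of its replicates or without OP-mESC replicate 1, and without OP-mESC replicate 2 the call was Pcdha4 instead. No promoter was called in either clone against either control. The shares of all promoters called were 0.0287% and 0.201% against YP-mESCs and 1.24% and 0.561% against OP-mESCs for #1 and #2. An unadjusted p under 0.05 was found for 2 to 5 of 10. It was found for 9.64% and 13.9% of all promoters against YP-mESCs and for 21.3% and 16.5% against OP-mESCs. The promoter of Pcdhb13 was at 29.39% and 30.20% in OP-S33Y #1 and at 33.99% and 27.14% in OP-S33Y #2, around the YP-mESC values, and it passed against OP-mESCs in both clones where the prior spread followed the counting error, beside 3.42% and 2.03% of all promoters called higher. Of 163 CpGs, 9 were higher in OP-S33Y #1 than in OP-mESCs (2.34% of all CpGs) and 4 in OP-S33Y #2 (0.679%), and against YP-mESCs 1 CpG was lower in each clone (0.174% and 0.834%). Against OP-mESCs, OP-S33Y #1 had 0 calls without its replicate 2, 3 without OP-mESC replicate 1 and 4 without OP-mESC replicate 2. OP-S33Y #2 had 0 without its replicate 1 or OP-mESC replicate 1, 1 without its replicate 2 and 2 without OP-mESC replicate 2. The single calls against YP-mESCs became 0 without OP-S33Y #1 replicate 2 or, for that clone, YP-mESC replicate 1, and 2 without YP-mESC replicate 2 or OP-S33Y #2 replicate 1.

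The hairpin against β-catenin was compared with the control hairpin in mESCs and in embryoid bodies. No exon and no promoter was called in either, where 0.0% of all first exons and promoters were called. At an unadjusted p under 0.05 stood 1 of 20 exons and 1 of 10 promoters in mESCs, beside 4.65% and 5.02% of all. In embryoid bodies these were 0 of 20 and 2 of 10, beside 7.53% and 6.67% of all. Of the 163 CpGs, 0 were called in mESCs (0.0526% of all CpGs) and 0 in embryoid bodies (0.114%). Over the exons the median difference was 1.98 points in mESCs and -0.16 points in embryoid bodies. Over the 73 exon CpGs the mean in mESCs was 3.0 points higher with shβcat #1, and the libraries did not overlap. The mean of all 329078 CpGs was also higher with shβcat #1, by 1.05 points and without overlap. Among exons at 10 to 90% in mESC shCtrl, the median difference was 2.0 points for protocadherins and 2.07 points for all first exons. The largest differences in mESCs were 14.67 points in the exon of Pcdhb16, at 71.21% and 80.77% with shβcat #1 and at 67.74% and 54.90% with shCtrl, and 16.56 points in the promoter of Pcdhb13, at 27.40% and 37.20% against 15.78% and 15.71%. Neither passed (limma, adjusted p = 1 and 0.97), and neither overlapped. The largest difference in embryoid bodies was that of Pcdha12, at 48.83% and 57.58% with shβcat #1 and at 38.04% and 35.68% with shCtrl, 16.35 points that did not pass. A test that misses does not show equal levels. In simulated data this test missed nearly all smaller changes and more than it found of the larger ones.

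Embryoid bodies were compared with mESCs of the same hairpin, to ask how methylation changed over 8 days of differentiation. With shCtrl, 6 of 20 exons were higher in embryoid bodies, none was lower, and 19 differed upward, with a median of 16.64 points beside 0.33 points over all first exons. Of all first exons, 4.63% were called higher and 0.0138% lower. Of the 828 at 10 to 90% in mESC shCtrl, 23.7% were called with a median of 9.51 points, against 5 of 16 protocadherin exons with a median of 19.20 points. With shβcat #1, 8 exons were higher and none was lower, beside 7.53% and 0.69% of all first exons, and the median was 11.88 points. Among those at 10 to 90% in mESC shβcat #1, 29.9% of 832 were called, with a median of 11 points, against 6 of 15 protocadherin exons with a median of 10.52 points. The share of called protocadherin exons in this range was thus near that of all first exons with either hairpin.

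Pcdhga8, another alternate gene of the γ cluster, had the largest increase among the 20 exons. Its exon lies at 37885547 to 37887988 of chromosome 18. Its exon was at 14.17% and 7.70% in mESC shCtrl and at 54.23% and 61.64% in EB shCtrl (limma, adjusted p = 0.0062). With shβcat #1 it was at 12.50% and 3.85% in mESCs and at 49.09% and 62.91% in embryoid bodies (limma, adjusted p = 0.0016). The exon of Pcdhb22 was at 13.64% and 11.67% in mESC shCtrl and at 50.65% and 54.17% in EB shCtrl (limma, adjusted p = 0.0034). In both genes every embryoid body library was above every mESC library, but the surroundings of these CpGs recur in the region. Pcdhga4, where they do not recur, was at 52.11% and 45.73% in mESC shCtrl and at 77.41% and 74.84% in EB shCtrl (limma, adjusted p = 0.024), and at 82.33% and 86.38% in EB shβcat #1.

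The exon of Pcdha12 was at 19.87% and 10.56% in mESC shCtrl and at 38.04% and 35.68% in EB shCtrl (limma, adjusted p = 0.035). Pcdhgb4 was at 24.08% and 12.20% and at 65.56% and 46.97%, and Pcdhga10 at 4.27% and 6.19% and at 22.17% and 19.28% (limma, adjusted p = 0.035 and 0.012). All 6 of these exons were called with shβcat #1 too, and Pcdhb2 and Pcdhgb7 in addition. Pcdhb2 was at 34.22% and 32.91% in mESC shβcat #1 and at 66.23% and 58.32% in EB shβcat #1, and Pcdhgb7 at 0% and 0.52% and at 9.98% and 17.01% (limma, adjusted p = 0.031 and 0.0056). In shCtrl the exon of Pcdhb2 also did not overlap, with 40.75% and 35.93% in mESCs and 53.97% and 52.56% in embryoid bodies, without passing. The difference between the hairpins in this change was itself tested, and 0 of 20 exons and 0 of 10 promoters passed, beside 0.0% of all. An unadjusted p under 0.05 was found for 1 of each, beside 5.77% of all first exons and 5.36% of all promoters.

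Exons that were highly methylated in mESCs differed less. Pcdhga7 was at 94.21% and 93.57% in mESC shCtrl and at 93.02% and 93.16% in EB shCtrl. Pcdhb1 was at 83.23% and 78.92% and at 87.54% and 83.57%, and Pcdhgc5 at 84.92% and 82.75% and at 94.63% and 90.58%. With shCtrl, the calls were Pcdhb22 and Pcdhga8 without EB replicate 1, Pcdhb22 without EB replicate 2, Pcdha12, Pcdhb22 and Pcdhga8 without mESC replicate 1, and Pcdhb22 and Pcdhga10 without mESC replicate 2. With shβcat #1, Pcdha12, Pcdhb22, Pcdhga4 and Pcdhga8 were called without any 1 library, and Pcdhgb7 as well without EB replicate 1 or mESC replicate 2. Where the prior spread followed the counting error, 10 exons were called with shCtrl, beside 6.91% of all first exons. Among the 10 exons without recurring surroundings, Pcdha12, Pcdhga4 and Pcdhga10 were called with either hairpin.

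The mean level of the promoters was also higher in embryoid bodies than in mESCs, with 12.31% ± 1.49 against 4.22% ± 0.30 with shCtrl and 12.35% ± 0.44 against 4.73% ± 0.38 with shβcat #1 (SD, n = 2, 48 CpGs). Of the 10 measured promoters, 2 were called with shCtrl, beside 5.45% of all promoters, and 2 with shβcat #1, beside 7.3%. Of the promoters at 10 to 90% in the mESCs, 22.4% of 899 were called with shCtrl, against 1 of 3 protocadherin promoters, and 24.8% of 917 with shβcat #1, against 1 of 2. The promoter of Pcdhb13 was at 15.78% and 15.71% in mESC shCtrl and at 58.33% and 47.86% in EB shCtrl (limma, adjusted p = 0.0022). With shβcat #1 it was at 27.40% and 37.20% and at 57.53% and 55.21% (limma, adjusted p = 0.039). That of Pcdhga2 was at 1.04% and 0% in mESC shCtrl and at 15.90% and 8.58% in EB shCtrl (limma, adjusted p = 0.0027). That of Pcdhga11 was at 0.27% and 0.36% in mESC shβcat #1 and at 7.64% and 14.83% in EB shβcat #1 (limma, adjusted p = 0.0017). Without EB shCtrl replicate 1 only Pcdhb13 was called with shCtrl. With shβcat #1, neither call held without EB shβcat #1 replicate 2, where Pcdhga2 was called instead, and without any of the other 3 libraries only Pcdhga11 was called.

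The measured promoters of the C type genes stayed low. That of Pcdhac2 had group means of 0.00% to 2.18%, that of Pcdhgc3 of 0.00% to 3.03% and that of Pcdhgc4 of 0.51% to 9.13%, the highest in EB shβcat #1 with 10.22% and 8.04%. The exon of Pcdhac2 was in contrast at 67.27% ± 4.12 in mESC shCtrl and 78.24% ± 1.78 in EB shCtrl. Low promoter levels were not particular to the C types, since that of the alternate gene Pcdhga10 had group means of 0.18% to 5.59%. The highest group means of the other measured alternate promoters ran from 11.24% in Pcdhga11 to 44.97% in Pcdhgb4. The start of Taf7, between the clusters, had group means of 0.18% to 1.34% over its 27 CpGs.

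Means were also taken by distance from the start codon, over the CpGs that the 4 libraries of mESC shCtrl and EB shCtrl share. Each bin pools 1 to 17 genes, which are not the same from bin to bin and differ in level, so that distance and gene cannot be told apart. In the alternate and Pcdhb genes, 39 CpGs of the 500 bases before the start codon averaged 5.69% ± 0.36 in mESC shCtrl and 21.74% ± 2.76 in EB shCtrl. Over 71 CpGs in the first 500 bases of the exon the means were 14.42% ± 0.22 and 35.91% ± 1.28, and over 78 CpGs in the next 500 bases they were 49.34% ± 2.11 and 68.59% ± 0.40. The highest mean was that of the 500 bases after these, with 74.00% ± 0.66 and 84.25% ± 1.10 over 47 CpGs. Beyond these it was lower again, with 49.78% ± 1.49 and 68.07% ± 1.53 over 60 CpGs. In these genes embryoid bodies were above mESCs in every bin.

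In the C type genes, 39 CpGs before the start codon averaged 3.53% ± 0.91 in mESC shCtrl and 5.24% ± 0.36 in EB shCtrl. Over the first 500 bases of the exon, 26 CpGs averaged 26.78% ± 1.40 and 32.38% ± 1.55. Over the next 500 bases, 24 CpGs of 2 genes averaged 30.65% ± 1.06 and 42.62% ± 0.59, and over the 500 bases after these, 5 CpGs of 1 gene averaged 27.21% ± 0.89 and 49.33% ± 4.40. The 18 CpGs from base 1500 on, from 2 genes, averaged 33.62% ± 3.03 and 64.85% ± 1.19. In these 4 libraries 38 exons were measured, and EB shCtrl was above mESC shCtrl in 37 of them, with a median of 15.80 points. With only 2 residual degrees of freedom, 4 were called, Pcdhb22, Pcdhgb1, Pcdhga8 and Pcdhga12, beside 2.26% of all first exons.

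**Figure D4:**
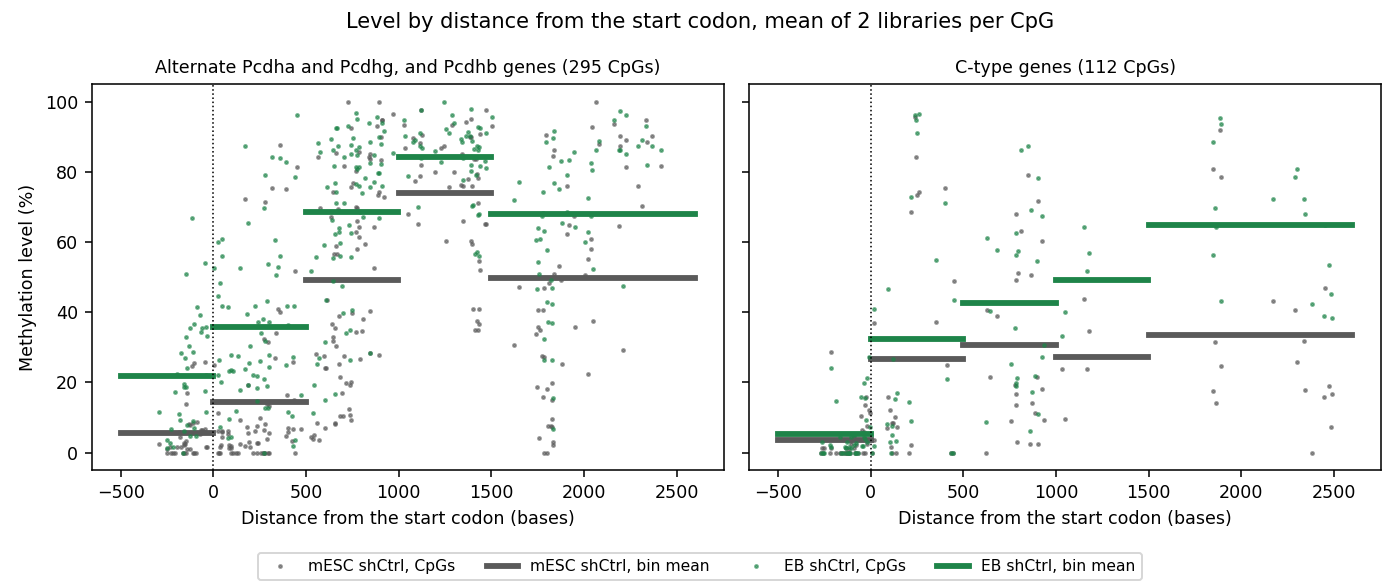
Methylation level in percent (vertical axis) against distance from the start codon in bases (horizontal axis) for CpGs shared by the 4 libraries of mESC shCtrl (grey) and EB shCtrl (green), in alternate and Pcdhb genes (left) and C type genes (right). Small points are CpGs, as the mean of 2 libraries, and thick lines are bin means, where the last bin runs to the end of the exon. Levels are lowest before the start codon, where the EB mean is 21.74% on the left and 5.24% on the right.

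Single CpGs and windows had the same direction in embryoid bodies. They largely rest on the same reads as the exons and promoters, so that this is no further support. With shCtrl 31 of 163 CpGs were higher and 0 lower, beside 6.47% and 0.0596% of all CpGs. With shβcat #1 26 were higher and 0 lower, beside 6.53% and 0.196%. Of the calls, 22 and 20 lay in variable exons. Without mESC shCtrl replicate 2 there were 19 calls with shCtrl. All 4 exon CpGs of Pcdhga8 were among the calls with either hairpin, and 5 of the 7 of Pcdhga4. Of the 35 windows, 16 and 15 were higher, beside 18.8% and 17.4% of all windows.

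Genes with related roles were looked at for comparison. Their lists hold 1 to 11 measured elements, too few to set a count of calls apart from the share over all elements. In embryoid bodies with shCtrl, 4.63% of all first exons and 5.45% of all promoters were called higher. With shβcat #1 the shares were 7.53% and 7.3%. The non-clustered protocadherins, which have promoters of their own outside the clusters, had 6 measured first exons and 3 promoters, and none was called in any comparison. Of 11 measured exons and 11 promoters of genes known to act on the clusters, such as CTCF, cohesin subunits and DNA methyltransferases, 1 promoter was called. This was Uhrf1, which recruits DNMT1 to replicated DNA, at 43.37% and 24.79% in mESC shCtrl and at 80.16% and 76.11% in EB shCtrl (limma, adjusted p = 0.0043), and it was also higher in EB shβcat #1. Among 3 exons and 1 promoter of pluripotency genes, the exon of Pou5f1, which encodes OCT4, was at 0% in both mESC shCtrl libraries and at 13.46% and 21.43% in EB shCtrl (limma, adjusted p = 0.0062). Of 2 exons and 2 promoters of neural genes, the called ones were those of Pax6, with the exon at 2.78% and 6.25% in mESC shβcat #1 and at 15.24% and 23.34% in EB shβcat #1 (limma, adjusted p = 0.044) and the promoter at 12.73% and 8.27% in mESC shβcat #1 and at 24.81% and 27.92% in EB shβcat #1 (limma, adjusted p = 0.018). None of 3 exons and 3 promoters of mesoderm and endoderm genes was called. These lists measure DNA methylation, not expression, so that the cell types in the libraries could not be checked against RNA. Of the neighbours inside the region, Gm10545, which shares the CpGs of Pcdha12, was called as that exon was, and Taf7 and Diap1 were not.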

How the data were processed

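RRBS libraries of 8 groups with 2 replicates each were analysed, grouped by the sample labels. The authors trimmed and filtered the reads (CASAVA 1.8.2 and Trim Galore 0.2.8, per the submitters' processing notes), aligned them to mm9 with Bismark 0.7.9, and deposited, per CpG cytosine, the count of covering reads with the methylated and unmethylated percent. The deposited counts are not normalized, replicates were not pooled, and every listed cytosine has at least 10 reads. The handling of duplicate reads is not given in the sources used here. Reads of both strands were summed. A read enters at every CpG it spans. Chromosome 13 is absent from YP-mESC replicate 2.

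The annotation merged many protocadherin genes, so variable exons were taken as long open reading frames of the mm9 sequence. Of the 58, 22 were named by GENCODE and 36 by their order in the cluster, and for 54 the closest protein lay in the same subgroup. The names of single genes rest on this order. No sequence of the region is printed.

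Levels are means of CpG percentages. Exons, promoters and windows were tested with limma 3.58.1 (R 4.3.3) on log2((methylated + 1)/(unmethylated + 1)) over all 16 libraries, with a prior spread that follows the mean log reads, for 9 comparisons and the difference of the last 2. Calls needed an adjusted p under 0.05 and over 10 points. Single CpGs were tested in the 4 libraries of a comparison with a binomial model of shared overdispersion. Python 3.11.15 was used. Named per cluster are genes with a called exon or promoter (at most 8, by size of difference), the first and last measured exon, and the 2 exons with the widest range. Genes named outside this rule were chosen after their values were seen.

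Simulated data were used to check the tests. In a first simulation the planned limma fit missed most changes. A prior spread following the counting error was then tried, after counts of both fits on the real data had been seen, and the simulated spread was reset to that of the real replicates. There the planned fit made no false calls but missed nearly all smaller changes and more than it found of the larger ones, and the other recovered most changes. The planned fit was kept. An element without a call may therefore have changed. The members and lists were chosen with earlier results of these data known. Alternatives were other minimums of reads and CpGs, prior counts, thresholds, promoter lengths and libraries, a replicate block, and leaving out single libraries.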

Additional observations from a re-analysis of the deposited data

How the results depend on the processing

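Each member call was set against several alternatives, and all 275 such pairs kept the direction of the call, while many lost the threshold. Direction is the sign of the difference of mean levels. Settings that change only the test or its threshold, such as the prior count or the replicate block, leave this sign as it is. For those settings the shared direction is no test. Of 399 alternatives, 284 stayed within 1.5 times the count or within 1 SD of the level, 115 moved and 0 reversed. A count of calls has no sign, so only levels were open to reversal. Counts of 0 that stayed 0 are among the 284. The 284 and the 0 reversed are therefore no measure of how stable the calls were. The cause of the moves was not tested. Stricter minimums left fewer exons, and the 4-library fits had 2 residual degrees of freedom.

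The exon calls of OP-mESCs against YP-mESCs, 6 in all, became 1 with at least 20 reads, 1 with at least 5 CpGs, 2 over 25 points, 0 in 4 libraries, 3 without recurring surroundings, and 1 to 3 with a replicate left out. The 1 call of OP-S33Y #2 against YP-mESCs became 0 with 20 reads, 5 CpGs, 25 points, 4 libraries or no recurring surroundings, 2 with the counting-error spread, and 0 to 1 with a replicate left out. The 3 of OP-S33Y #1 against OP-mESCs became 1 with a prior count of 0.5, 5 CpGs or 25 points, 0 in 4 libraries, 5 with the counting-error spread, and 0 to 1 with a replicate left out. The 1 of OP-S33Y #2 against OP-mESCs became 0 under those settings, with 20 reads and with the replicate block, 2 with the counting-error spread, and 0 to 1 with a replicate left out. The 6 of EB shCtrl became 1 with 20 reads or 5 CpGs, 10 with the counting-error spread, 3 without recurring surroundings, and 1 to 3 with a replicate left out. The 8 of EB shβcat #1 became 5 with a prior count of 0.5, 1 with 20 reads or 5 CpGs, 3 without recurring surroundings, and 4 to 5 with a replicate left out.

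For promoters, the counting-error spread gave 1 call, Pcdhb13, for OP-mESCs against YP-mESCs and for each clone against OP-mESCs, in place of 0. The 2 of EB shCtrl became 0 with 20 reads or 5 CpGs, 1 over 25 points, 5 in 4 libraries, and 1 to 2 with a replicate left out. The 2 of EB shβcat #1 became 1 with a prior count of 0.5, 5 CpGs, 500 bases or a replicate left out, and 0 with 20 reads or over 25 points.

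For single CpGs, 20 reads gave 2 calls for OP-mESCs against YP-mESCs (12), 0 for OP-S33Y #1 (1) and #2 (1) against YP-mESCs, 4 and 1 against OP-mESCs (9 and 4), 14 for EB shCtrl (31) and 10 for EB shβcat #1 (26). A threshold of 10 points gave 20 for OP-mESCs and 2 for each clone against YP-mESCs, and 45 for EB shβcat #1. The CpGs of the 4 libraries gave 2 and 3 for the clones against YP-mESCs, 1 for mESC shβcat #1 (0), 99 for EB shCtrl and 85 for EB shβcat #1. With the replicate block, OP-S33Y #1 against YP-mESCs had 0 and OP-S33Y #2 against OP-mESCs 1. The block changed no other count by over 1.5 times. Same-numbered libraries did not deviate together from their group means, with correlations from -0.052 to 0.065 over 28 pairs of groups, so that the libraries share only a number. With a replicate left out the counts ran from 4 to 9, 0 to 2, 1 to 2, 0 to 7, 0 to 2, 19 to 25 and 20 to 29, in this order of comparisons.

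For the variable exon level, the difference of OP-mESCs from YP-mESCs, -12.36 points, was -11.37 by reads, -10.43 with 20 reads and -11.38 by strand. OP-S33Y #1 against YP-mESCs, -3.98, was -4.82 by reads. OP-S33Y #2 against YP-mESCs, -7.85, was -5.59 by reads and -6.73 by strand. OP-S33Y #1 against OP-mESCs, 8.38, was 6.55 by reads, 6.89 with 20 reads and 7.81 by strand. OP-S33Y #2 against OP-mESCs, 4.51, was 5.78 by reads and 2.25 with 20 reads. EB shβcat #1 against EB shCtrl, 0.52, was 2.91 over the CpGs of each group. At 10 reads a CpG moves in steps of 10 points, which limits single CpGs and exons with 2 of them.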
